A study of Mus musculus with 24 samples.

Results

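The CC chemokine ligands examined here are 10 secreted proteins of 1 family, encoded by Ccl2, Ccl5, Ccl6, Ccl7, Ccl8, Ccl9, Ccl11, Ccl19, Ccl22 and Ccl25. They were found by taking every array probe whose gene name equals one of these symbols, which gave 15 of the 55681 probes measured. Ccl19 had 3 probes, Ccl25 had 4 and each other gene had 1. Where a gene had several, the brightest on average was called the first, and the others were numbered by falling mean.

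RNA from whole mammary glands of female mice was hybridised to 1-colour arrays. Mice of the inbred strains BALB/c and SPRET/EiJ received a single whole-body X-ray dose of 10 cGy, called low-dose ionizing radiation (LDIR), or a sham exposure at 8 to 9 weeks of age. BALB/c glands were taken 2, 4 and 8 weeks later and SPRET/EiJ glands at 4 weeks only, in 8 groups of 3 arrays. SPRET/EiJ derives from another mouse species, Mus spretus, and was compared with probes designed on the reference mouse sequence. The study asked how the strains, which differ in susceptibility to radiation-induced mammary cancer, differ at baseline and after LDIR. The study's methods call the 3 arrays of a group biological replicates, while the labels give neither the estrous stage nor which arrays come from separate mice, so the p-values measure the spread between these arrays.

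Chemokines are small secreted proteins that bind G protein-coupled receptors on leukocytes and direct where those cells move. In the mammary gland, macrophages and eosinophils surround the growing ducts, and lymphocytes lie in the tissue and in the lymph node embedded in the fat pad. Ccl6 and Ccl9 are products of myeloid cells that act through Ccr1, mouse Ccl8 is a ligand of Ccr8, Ccl2 and Ccl7 draw monocytes through Ccr2, and Ccl11 (eotaxin) draws eosinophils through Ccr3. Ccl5 is made in large amounts by activated T cells and natural killer cells, Ccl19 is the Ccr7 ligand of lymph node stroma, Ccl22 is a product of dendritic cells that binds Ccr4, and Ccl25 binds Ccr9.

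The Ccl19 and Ccl25 probes are shown because probes of the same gene differed in how far the strains stood apart, and the Ccl6 probe because it showed the largest strain difference of the 10 genes. Positions are those of the array files (mm9), each probe is 60 bases long, and its first 30 bases are given 5′ to 3′ in lower case. The annotation needed to place a probe in an exon or UTR of this build was not used here. RefSeq lists near-identical Ccl19 copies on chromosome 4, so the Ccl19 signal may come from more than 1 copy.
Ccl6, chr11:83401997-83402056, minus strand: aatgtgtctggttctgatacaagcttaagc
Ccl19, the first probe, chr4:42248526-42248585, plus strand: aagctcacttgcacttggctcctgaacccc
Ccl19, the second probe, chr4:42248630-42248689, plus strand: ttcttgcgcacacagtctctcaggctcact
Ccl19, the third probe, chr4:42250105-42250164, plus strand: acctccagaccagctctgggtggatcgcat
Ccl25, the first probe, chr8:4359916-4359975, plus strand: gaggaacgagaggatagtgagtgtgtgaga
Ccl25, the second probe, chr8:4348678-4348737, plus strand: aaacttgatgaccttactttgattccaagc
Ccl25, the third probe, chr8:4327833-4327892, plus strand: aggcagaaggaaaatcaagtgggttccatc
Ccl25, the fourth probe, chr8:4357861-4357920, plus strand: gatctactatcagcaaacagaaagtgtctt
The third Ccl25 probe was designed on a non-coding transcript record and lies upstream of the other Ccl25 probes. The remaining genes lay on chromosome 11 (Ccl2, Ccl7, Ccl11 and Ccl8 in 1 cluster, Ccl5, Ccl9 and Ccl6 in another), except Ccl22 on chromosome 8.

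Levels are log2 intensities relative to the 75th percentile of the same array, so a level of 0 equals that percentile and a difference of 1 is a 2-fold change. Levels of different probes are not compared with each other. On every array, 12 of the 15 probes exceeded background by the scanner software's call (well above background). Ccl22 was well above background on 4 arrays, the third Ccl25 probe on 17 and the fourth Ccl25 probe on 0. The Ccl2 probe was printed 10 times on each array, and its 10 spots had a median SD of 0.09 within an array, against a median SD of 0.59 between the 3 arrays of a group. In whole tissue, fewer cells of a type and less RNA per cell cannot be told apart.

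Adipocyte and epithelial markers were well above background on all 24 arrays, as the tissue label requires. Before any comparison, 3 arrays stood apart from the rest: BALB/c sham 8 weeks A, BALB/c LDIR 8 weeks B and SPRET/EiJ LDIR 4 weeks A. In these arrays the mean log2 level of 6 T lymphocyte markers was 3.37 to 3.96, against -1.74 to -0.25 in the other 21. The mean of 5 B lymphocyte markers was 2.52 to 2.66 in the 3 arrays and -3.88 to -2.22 in the others, and that of 5 adipocyte markers was 4.95 to 5.79 against 6.22 to 7.39. The 5 measured lymph node markers had means of 3.98 and 4.25 in both BALB/c arrays and 0.19 in the SPRET/EiJ array, against -3.56 to -1.22 elsewhere.

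Ccl5, Ccl19 and Ccl22, the members tied to lymphocytes and lymphoid tissue, were high in just these arrays. The level of Ccl5 was 6.14 in sham 8 weeks A, 6.65 in LDIR 8 weeks B and 6.82 in SPRET/EiJ LDIR A, and between -0.18 and 2.63 in the other 21 arrays. The first Ccl19 probe read 1.60, 1.93 and 2.82 in the 3 arrays in the same order, and -2.56 to -0.13 elsewhere. Ccl22 read -1.38, -1.20 and -2.75, and in the other 21 arrays it was well above background only in BALB/c sham 8 weeks C, at -5.88. The second and the third Ccl19 probe separated the same 3 arrays, at 1.75 to 2.92 and at 3.32 to 4.67. No other member had all 3 arrays above the remaining 21. They include 1 sham and 1 irradiated BALB/c gland at 8 weeks, so both groups of that comparison hold an array of this kind. The part of lymph node or lymphocyte RNA in these values was not tested.

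**Figure D1:**
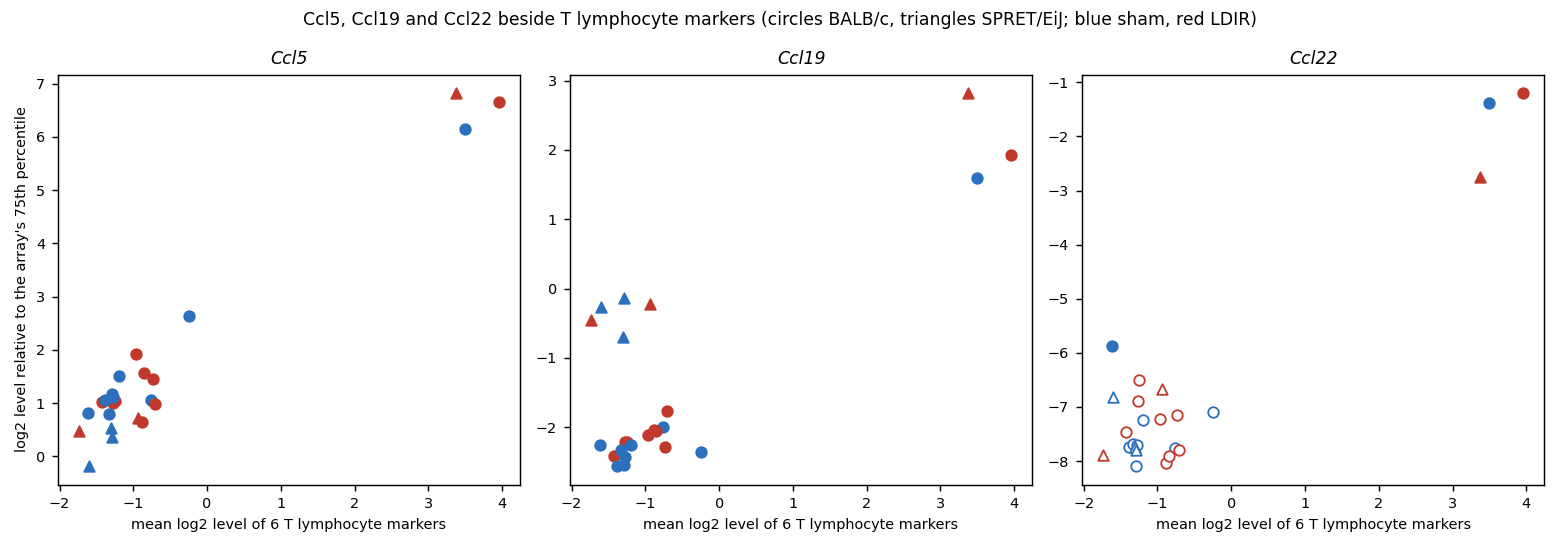
Log2 level of Ccl5, Ccl19 (first probe) and Ccl22 on each of the 24 arrays (y axis) against the mean log2 level of 6 T lymphocyte markers on the same array (x axis). Circles are BALB/c, triangles SPRET/EiJ, blue sham, red LDIR, and open symbols are not well above background. The 3 arrays with marker means from 3.37 to 3.96 hold the highest values of each gene.

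The plot of levels by array shows all 10 genes, with these 3 arrays as diamonds.

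**Figure D2:**
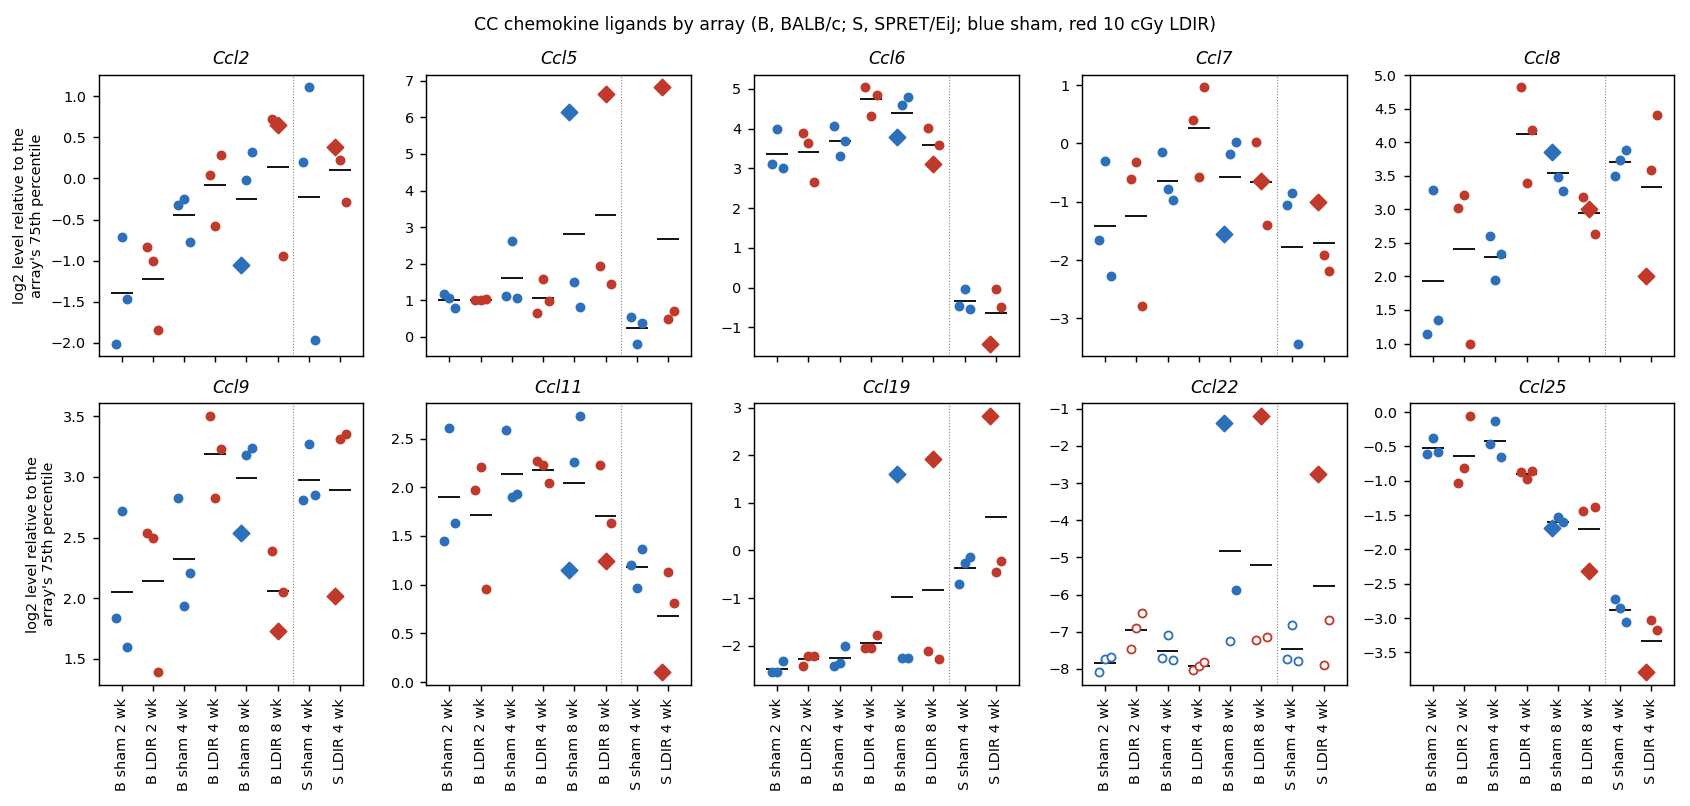
Log2 level of the brightest probe of each CC chemokine ligand (y axis, relative to the array's 75th percentile) in the 8 groups (x axis). Each symbol is 1 array, the line is the mean of 3, diamonds mark the 3 arrays with high lymphocyte markers, and open symbols are not well above background. Ccl6 and Ccl25 were lower on every SPRET/EiJ array than on every BALB/c array, and Ccl5, Ccl19 and Ccl22 were highest in the diamonds.

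At 4 weeks after sham exposure, Ccl6 and Ccl25 were higher in BALB/c than in SPRET/EiJ glands, and Ccl8 and Ccl19 were lower. These 4 of the 10 genes passed the thresholds of the study for strains, an unadjusted p under 0.001 and a change above 1.5-fold, which 8.86% of all probes passed (5.43% higher and 3.43% lower in BALB/c). The median log2 difference, BALB/c minus SPRET/EiJ, was 0.45 over the 10 genes and -0.06 over all probes. With Benjamini-Hochberg adjustment over all probes, 5 of the 10 genes had an adjusted p under 0.05, against 18.7% of probes. The 3 arrays of each strain did not overlap for 4 genes that were higher in BALB/c (18.1% of probes) and for 2 that were lower (18.7%). All 6 SPRET/EiJ arrays lay on slide 3, and the BALB/c arrays at 4 weeks on slides 1 and 2, so within both strain comparisons strain and slide cannot be told apart. A fit of all 24 arrays with slide as a block links them only through BALB/c LDIR 8 weeks B and C on slide 3, of which B stands apart. In that fit 1 of the 10 genes kept its call in sham glands, Ccl6, at 3.39 (adjusted p = 0.037).

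Ccl6 was 4.07, 3.32 and 3.70 in the 3 BALB/c sham arrays and -0.47, -0.04 and -0.54 in the 3 SPRET/EiJ sham arrays. The groups did not overlap, and the difference was 4.05 (SE 0.26, 16.5-fold, adjusted p = 0.000302). After LDIR it read 5.04, 4.33 and 4.85 in BALB/c and -1.41, -0.04 and -0.49 in SPRET/EiJ, a difference of 5.38 (SE 0.40, 41.7-fold, adjusted p = 0.000892). Without the SPRET/EiJ LDIR array that stands apart the difference was 5.0 (adjusted p = 0.00148). Over all 24 arrays Ccl6 ranged from 2.65 to 5.04 in the 18 BALB/c arrays and from -1.41 to -0.04 in the 6 SPRET/EiJ arrays. Every BALB/c array was thus above every SPRET/EiJ array. This difference rests on 1 probe, and whether sequence differences of SPRET/EiJ under it took part was not tested. The same holds for the other genes with 1 probe.

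Ccl25 gave different answers with its 4 probes. The first probe was -0.46, -0.13 and -0.66 in BALB/c sham and -2.72, -2.86 and -3.06 in SPRET/EiJ sham arrays, a difference of 2.46 (SE 0.20, 5.51-fold, adjusted p = 0.000782). After LDIR its difference was 2.43 (SE 0.27, adjusted p = 0.00323). With slide as a block over all 24 arrays the sham difference was 1.82 (adjusted p = 0.101) and lost its call. The strains did not overlap on this probe in either comparison. Among irradiated glands 19.1% of all probes were higher in BALB/c without overlap.

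On the second Ccl25 probe, also well above background on all arrays, the sham difference was 0.59 (SE 0.22, adjusted p = 0.123), and the LDIR difference was 0.42 (SE 0.25, adjusted p = 0.368). On the third probe, BALB/c sham arrays read -4.30, -3.70 and -4.21 and SPRET/EiJ sham arrays -7.10, -5.51 and -5.23, of which only the last was well above background. Its sham difference was 1.88 (SE 0.51, adjusted p = 0.049), and after LDIR it was -0.24 (SE 0.48, adjusted p = 0.786). The fourth probe measured nothing above background. The size of the Ccl25 strain difference thus depended on the probe, and whether sequence differences of SPRET/EiJ under a probe took part was not tested. The mean of 6 epithelial markers was 2.61 to 3.52 in BALB/c and 0.40 to 2.57 in SPRET/EiJ sham arrays. Of these markers 0 passed the thresholds, with a median difference of 1.58 in sham and 1.55 in LDIR glands. Of 5 dendritic cell markers, 2 were higher past the thresholds in sham glands, against 5.43% of all probes, with a median of 0.72. The part of both lists in the strain differences of the CC ligands was not tested.

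The first Ccl19 probe was lower in BALB/c, at -2.43, -2.36 and -2.00 against -0.70, -0.27 and -0.13 in SPRET/EiJ sham arrays, a difference of -1.89 (SE 0.22, adjusted p = 0.00275). The 3 Ccl19 probes had the same direction but not the same size, with a sham difference of -0.81 on the second probe (SE 0.20, adjusted p = 0.036) and -2.49 on the third (SE 0.32, adjusted p = 0.00381). None of the 3 probes overlapped between the strains.

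After LDIR, the Ccl19 difference was -2.66 (SE 0.84, adjusted p = 0.101) on the first probe with the SPRET/EiJ array that stands apart. Without that array it was -1.61 (adjusted p = 0.00725), and it then passed the thresholds. The mean of the 5 measured lymph node markers was -1.69 to -1.22 in SPRET/EiJ sham arrays and -3.30 to -2.99 in BALB/c, with a median difference of -0.54. Of these genes 1 was past the thresholds, against 8.86% of all probes. It was Cr2, a complement receptor of B cells and follicular dendritic cells, with a difference of -5.62 (adjusted p = 0.000142). The T lymphocyte mean was -1.60 to -1.29 in SPRET/EiJ and -1.28 to -0.25 in BALB/c sham arrays, and the part of these lists in the Ccl19 difference was not tested. In a fit of all 24 arrays with slide as a block, the 3 Ccl19 differences turned to 0.30, 1.39 and 0.93 (adjusted p = 0.967, 0.896 and 0.947). That fit links slide 3 to the others only through BALB/c LDIR 8 weeks B and C. Array B stands apart, at 1.93 on the first Ccl19 probe.

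Ccl8 passed the thresholds in sham glands. It was 2.61, 1.95 and 2.33 in BALB/c sham and 3.50, 3.73 and 3.88 in SPRET/EiJ sham arrays, with no overlap and a difference of -1.41 (SE 0.23, adjusted p = 0.00855). After LDIR the groups overlapped, and the difference was 0.80 (SE 0.66, adjusted p = 0.527), or 0.13 without the array that stands apart. The sham call held under 6 of 16 alternatives. The alternatives that lost it included the replicate block (adjusted p = 0.0337) and slide as a block over all 24 arrays (-1.75, adjusted p = 0.636). They also included each fit without a single array other than BALB/c sham A. The summed signal of 8 macrophage markers did not overlap either, at 45.7 to 76.1 in BALB/c and 91.7 to 110 in SPRET/EiJ sham arrays, in units of the 75th percentile, with a median log2 difference of -0.64. Of these 8 markers 0 passed the thresholds, against 8.86% of all probes. By limma's moderated test 2 of the 8 had an adjusted p under 0.05, against 18.7% of all probes. The part of these markers in the Ccl8 difference was not tested.

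Ccl11 was 2.59, 1.90 and 1.93 in BALB/c sham and 1.20, 0.97 and 1.37 in SPRET/EiJ sham arrays, without overlap. Its difference of 0.96 (SE 0.25, adjusted p = 0.0421) missed the unadjusted threshold, as did that of 1.5 after LDIR (SE 0.31, adjusted p = 0.0274), and with slide as a block over all 24 arrays the sham difference was -0.04. Ccl7 differed by 1.97 after LDIR (SE 0.49, adjusted p = 0.0488) and by 1.14 in sham glands (SE 0.70, adjusted p = 0.334). After LDIR, 3 of 3 BALB/c arrays were above all SPRET/EiJ arrays for Ccl7, which held for 19.1% of all probes. With slide as a block over all 24 arrays the Ccl7 differences were 0.92 after LDIR (adjusted p = 0.933) and -0.24 in sham glands (adjusted p = 0.964).

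For Ccl2, Ccl5, Ccl9 and Ccl22 the sham differences lay between -0.65 and 1.36, with adjusted p from 0.0991 to 0.916. Among irradiated glands, 2 of the 10 genes passed the thresholds, Ccl6 and Ccl25, both higher in BALB/c, against 5.68% of all probes (3.84% in this direction), and 4 had an adjusted p under 0.05, against 11.1%. With slide as a block over all 24 arrays both kept their calls, Ccl6 at 4.72 (adjusted p = 0.00103) and Ccl25 at 2.02 (adjusted p = 0.0254).

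**Figure D3:**
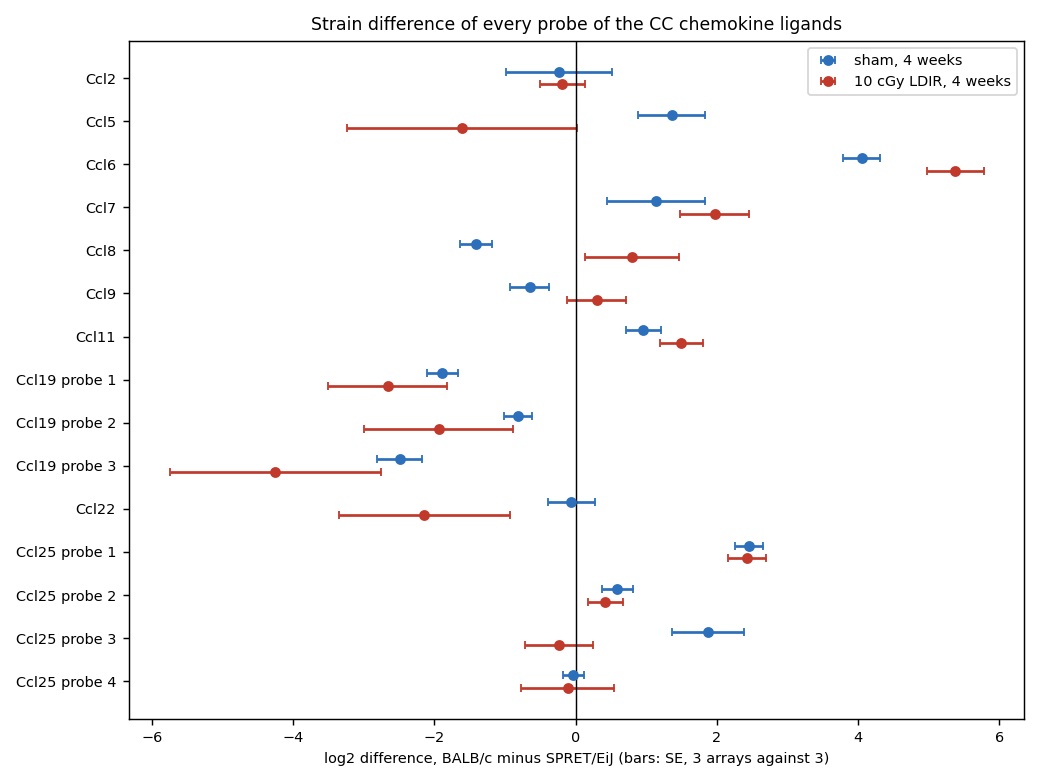
Log2 difference, BALB/c minus SPRET/EiJ at 4 weeks (x axis), of each of the 15 probes (y axis) in sham (blue) and LDIR (red) glands, 3 arrays against 3, with bars for the SE. Ccl6 stood farthest from 0, the 4 Ccl25 probes were spread from -0.03 to 2.46 in sham glands, and Ccl8 lay at -1.41 in sham and 0.80 in LDIR glands.

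In BALB/c glands 4 weeks after LDIR, Ccl6, Ccl8 and Ccl9 were higher than after sham exposure. These 3 of 10 genes passed the thresholds for LDIR, an unadjusted p under 0.05 and a change above 1.5-fold, against 3.45% of all probes in this direction and 4.83% in both. No probe of the array had an adjusted p under 0.05, and 3419 probes (6.14%) had an unadjusted p under 0.05. The median difference, LDIR minus sham, was 0.34 over the 10 genes and 0.02 over all probes.

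Ccl8 rose from 2.61, 1.95 and 2.33 in sham arrays to 4.82, 3.39 and 4.18 in LDIR arrays, by 1.83 (SE 0.39, 3.55-fold, adjusted p = 0.676). Ccl6 rose by 1.04 (SE 0.28, 2.06-fold, adjusted p = 0.708), and for both genes every irradiated array was above every sham array, which held for 6.45% of all probes. Ccl9 was 2.83, 1.94 and 2.21 in sham and 3.50, 2.83 and 3.23 in LDIR arrays, a difference of 0.86 (SE 0.29, 1.81-fold, adjusted p = 0.783) with groups that touched at 2.83. The 3 LDIR arrays shared slide 2 with sham C alone, so a slide block sets them against 1 sham array and cannot settle a call. It gave 1.79 for Ccl8, 1.03 for Ccl6 and 0.97 for Ccl9, and with slide as a block over all 24 arrays none of the 3 passed the thresholds (adjusted p = 1 for each).

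Of 8 macrophage markers, 4 were higher past the thresholds after LDIR at 4 weeks and 0 lower, with a median difference of 0.79. Of all probes, 3.45% were higher and 1.38% lower past the thresholds. The lowest adjusted p of the 8 markers was 0.708 by limma's moderated test. Cd68, a lysosomal protein of macrophages, differed by 0.82 and C1qa, a complement component that macrophages make, by 1.04. The summed signal of the 8 markers, in units of the 75th percentile, was 45.7 to 76.1 in the 3 sham arrays and 80.6 to 105 in the 3 LDIR arrays, without overlap. The part of macrophage content in the rise of Ccl6, Ccl8 and Ccl9 was not tested.

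The other members differed less at 4 weeks in BALB/c. Ccl7 differed by 0.90 (SE 0.43, adjusted p = 0.783), Ccl2 by 0.37 and Ccl11 by 0.04. Ccl25 was lower on its first probe by 0.49 on the log2 scale, under 1.5-fold. On that probe 3 of 3 LDIR arrays were below all sham arrays, which held for 5.76% of all probes. On the third probe it passed the thresholds, from -4.30, -3.70 and -4.21 in sham to -4.62, -4.90 and -5.12 in LDIR arrays (difference -0.81, SE 0.23, adjusted p = 0.749).

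In BALB/c glands 8 weeks after LDIR, the same myeloid ligands had differences in the opposite direction. Ccl9 was 2.54, 3.18 and 3.24 in sham and 2.39, 1.73 and 2.05 in LDIR arrays, a difference of -0.93 (SE 0.31, adjusted p = 1), and was the only 1 of the 10 genes past the thresholds, against 1.64% of all probes in this direction and 1.81% in both. Ccl8 was 3.85, 3.49 and 3.27 in sham and 3.19, 3.00 and 2.63 in LDIR arrays, without overlap but short of the threshold (difference -0.60, SE 0.28, adjusted p = 1), and 3.99% of all probes were lower without overlap. Ccl6 differed by -0.82 (SE 0.38, adjusted p = 1) with groups that overlapped.

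The median of all probes in this comparison was -0.14. Without the 2 arrays that stand apart, which leaves 2 arrays in each group, Ccl9 differed by -0.99 (adjusted p = 0.955) and Ccl6 by -0.89 (adjusted p = 0.968), both past the unadjusted thresholds, and Ccl8 by -0.47 (adjusted p = 0.968). LDIR A alone shared slide 2 with the 3 sham arrays, so the slide block, with -0.60 for Ccl9, sets 1 LDIR array against them and cannot settle the call. Macrophage markers had a median difference of -0.16, and 0 of 8 passed the thresholds. For Ccl5, Ccl19 and Ccl22 the SE of the 8-week difference was 1.56 to 2.20, and without both arrays the differences of Ccl5 and Ccl19 were 0.53 and 0.06.

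The test of whether the LDIR difference was the same at 2, 4 and 8 weeks was past the unadjusted threshold for Ccl6, Ccl8 and Ccl9, 3 of 10 genes against 3.71% of all probes, with an adjusted p of 1 for each. The LDIR difference at 4 weeks exceeded that at 8 weeks by 1.86 for Ccl6, 2.43 for Ccl8 and 1.79 for Ccl9, beside a median of 0.22 over all probes. Without both arrays that stand apart the values were 1.93, 2.30 and 1.85, and Ccl6 and Ccl9 but not Ccl8 were past the threshold (adjusted p = 0.979 for each). With slide as a block over all 24 arrays the values were 1.41, 2.14 and 1.57, and none of the 3 was past it (adjusted p = 1 for each).

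At 2 weeks after LDIR in BALB/c, the differences of 9 members lay between -0.18 and 0.48 on their first or only probe, none past the unadjusted threshold. The second Ccl19 probe differed by 0.45 (adjusted p = 0.893), under 1.5-fold. Ccl22 passed the thresholds, 1 of 10 genes against 3.11% of probes, but was not well above background on any of the 6 arrays, so it has no measured difference. In SPRET/EiJ at 4 weeks, 0 of 10 members passed the thresholds, against 2.2% of probes, by limma's moderated test, and 0 had an unadjusted p under 0.05. Their largest difference, 2.43 for Ccl5 (SE 1.60, adjusted p = 0.972), rested on the array that stands apart and was 0.35 without it (adjusted p = 1).

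**Figure D4:**
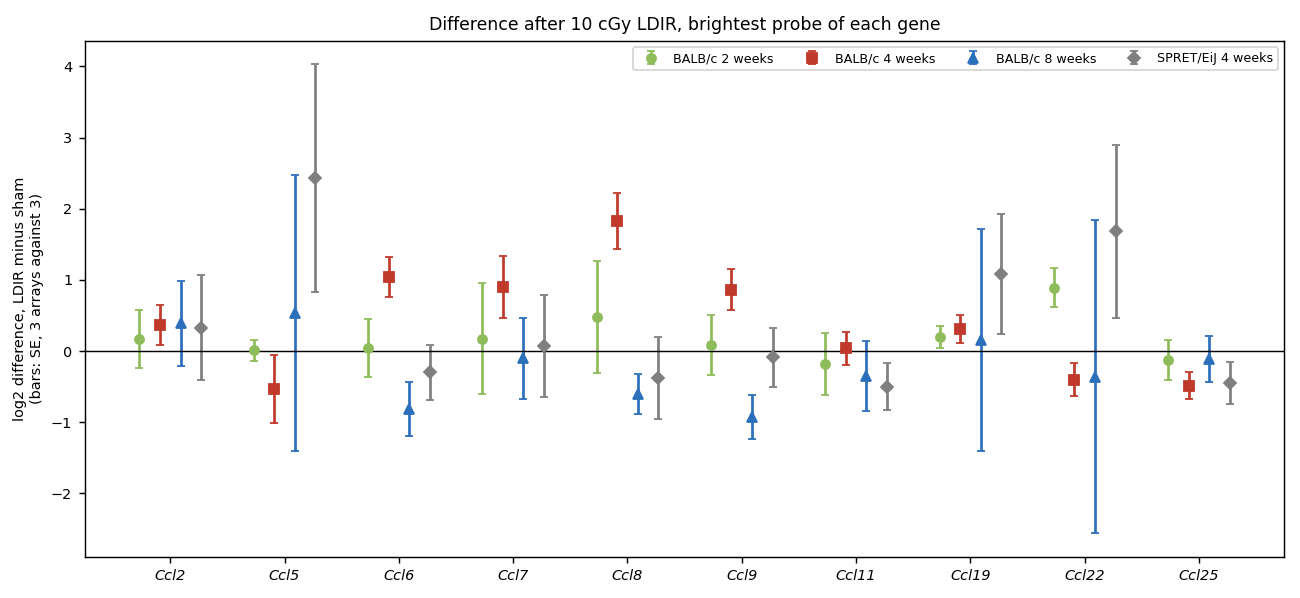
Log2 difference, LDIR minus sham, of the brightest probe of each gene (x axis) for the 3 BALB/c times and for SPRET/EiJ (y axis, bars for the SE of 3 arrays against 3). Ccl6, Ccl8 and Ccl9 lay above 0 in BALB/c at 4 weeks and below 0 at 8 weeks, and the wide bars of Ccl5, Ccl19 and Ccl22 belong to the comparisons with arrays of high lymphocyte markers.

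The LDIR difference at 4 weeks was larger in BALB/c than in SPRET/EiJ by 2.21 for Ccl8 (SE 0.76) and by 1.34 for Ccl6 (SE 0.50), with an adjusted p of 0.957 for both. These 2 of 10 genes compare with 3.55% of all probes past the thresholds of this test. Without the SPRET/EiJ array that stands apart they were 1.54 and 0.95 (adjusted p = 0.908 for both), still past the unadjusted thresholds. With slide as a block over all 24 arrays they were 2.17 and 1.33 and lost their calls (adjusted p = 1 for both), as did the third Ccl25 probe. For Ccl9 the value was 0.94 (SE 0.53, adjusted p = 0.957). The third Ccl25 probe had a value of -2.12 (SE 0.74, adjusted p = 0.957), past the unadjusted thresholds, with 3 of 6 SPRET/EiJ arrays well above background. Of the 8 macrophage markers, 2 were past the thresholds in the same test, with a median of 0.90.

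Over time in sham glands of BALB/c, Ccl8 was higher at 8 than at 4 weeks by 1.24 (SE 0.29, 2.36-fold, adjusted p = 0.166). It lost its call with slide as a block over all 24 arrays (1.20, adjusted p = 0.668). Ccl25 was lower at 8 weeks, at -1.69, -1.53 and -1.60 on its first probe (difference -1.19, SE 0.24, 2.28-fold, adjusted p = 0.139). Neither gene overlapped between the times. Of all probes, 9.63% were higher and 13.8% lower at 8 weeks without overlap. These 2 of 10 genes stand beside 13.8% of all probes past the thresholds. The second Ccl25 probe had a difference of -0.95 (SE 0.31, adjusted p = 0.269), past the unadjusted thresholds, and the third -1.88 (SE 0.98, adjusted p = 0.472), where only 1 of the 3 arrays at 8 weeks was well above background.

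Without sham 8 weeks A, Ccl8 differed by 1.08 and Ccl25 by -1.15, and Ccl6 (1.0, adjusted p = 0.123) and Ccl9 (0.88, adjusted p = 0.183) also passed the thresholds, so that 4 of 10 genes did. In that fit 11164 of all probes passed, against 7672 with the array. Other tissue markers moved between these times: 4 of 4 skeletal muscle markers were higher at 8 weeks, 4 of 5 adipocyte markers lower and 3 of 8 macrophage markers higher past the thresholds. Of all probes, 5.33% were higher and 8.45% lower past them. The part of these markers in the Ccl8 and Ccl25 differences was not tested. Between 2 and 4 weeks, Ccl2 was higher at 4 weeks by 0.95 (SE 0.35, adjusted p = 0.99) with groups that overlapped, 1 of 10 genes against 3.04% of probes.

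The 3 BALB/c sham arrays at 4 weeks enter the strain comparison, the LDIR comparison at 4 weeks and both time comparisons. The mean Ccl8 level was 2.30 ± 0.33 (SD, n = 3) in them, against 1.93 ± 1.18 in sham glands at 2 weeks, 3.54 ± 0.29 at 8 weeks and 3.71 ± 0.19 in SPRET/EiJ sham glands. In BALB/c LDIR glands its mean stood at 2.41 ± 1.23 after 2 weeks, 4.13 ± 0.72 after 4 weeks and 2.94 ± 0.28 after 8 weeks, and 3.33 ± 1.22 in SPRET/EiJ LDIR glands. The comparisons that use these 3 arrays are thus not independent.

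Across the 16 BALB/c arrays that do not stand apart, Ccl6, Ccl8 and Ccl9 varied together, with Pearson's r of 0.98 for Ccl6 with Ccl9, 0.93 for Ccl6 with Ccl8 and 0.92 for Ccl8 with Ccl9. Their r with the mean of the 8 macrophage markers was 0.87, 0.89 and 0.88. Ccl2 and Ccl7, the Ccr2 ligands, had an r of 0.85 with each other. Ccl25 had an r of -0.60 with the macrophage mean and 0.68 with the adipocyte mean. These values describe arrays that share tissue, slide and group, and are given without a test.

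**Figure D5:**
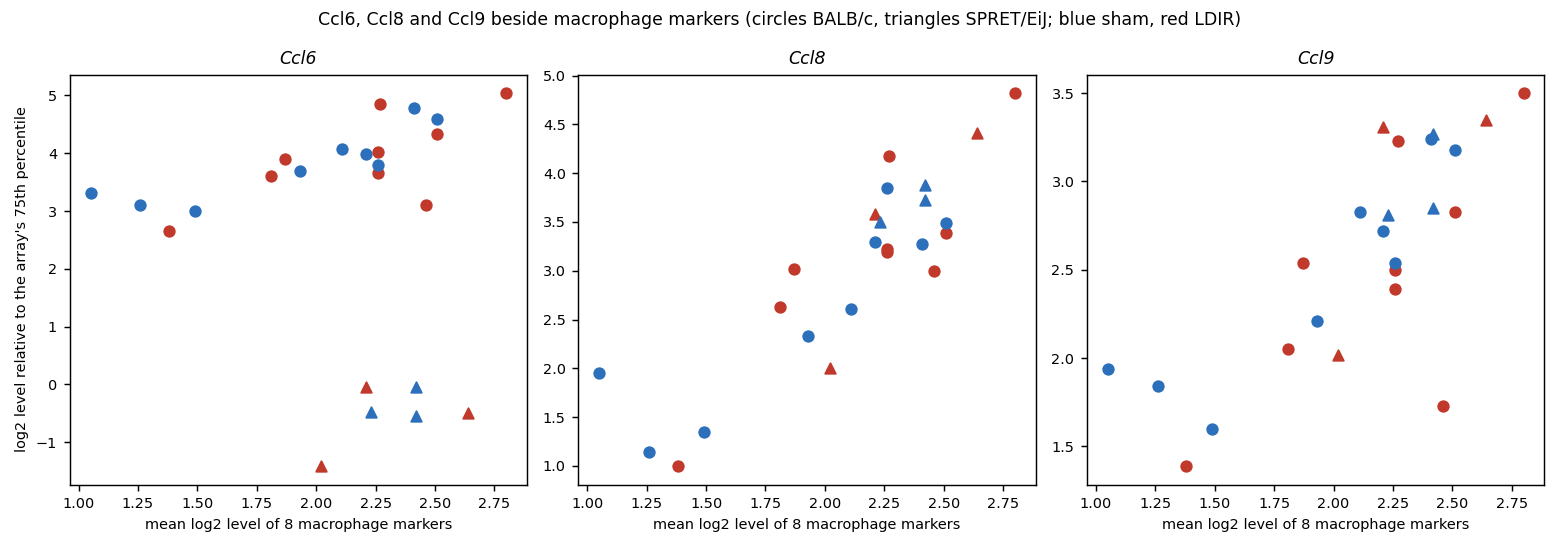
Log2 level of Ccl6, Ccl8 and Ccl9 on each of the 24 arrays (y axis) against the mean log2 level of 8 macrophage markers on the same array (x axis). Circles are BALB/c, triangles SPRET/EiJ, blue sham and red LDIR. Among BALB/c arrays that do not stand apart, all 3 genes tended to be higher where the markers were higher. The SPRET/EiJ arrays lay within the BALB/c range for Ccl8 and Ccl9 and below it for Ccl6.

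The genes whose pattern over all 24 arrays was most like that of each member were sought among 18542 named genes. For Ccl5 they were Ltb and Cd2 (r of 0.99 each) and for Ccl19 H2-Ob and Cd37 (0.98 each), genes of lymphocytes. Over the 21 arrays without the 3 that stand apart they were Ms4a4b (0.93) and Tox (0.91) for Ccl5 and Ncrna00086 and Sstr4 (0.99 each) for Ccl19. For Ccl8 they were C1qc (0.91) and Ms4a8a (0.90) and for Ccl9 Alox5 (0.94) and C1qc (0.91), where C1qc is a complement component made by macrophages. For Ccl11 they were Ccl24 (0.91), another eotaxin, and Atp8b1 (0.90). The median level of Ccl11 was 2.00 in BALB/c and 1.05 in SPRET/EiJ arrays, and that of the first Ccl19 probe -2.24 and -0.25. The part of strain in the matches of these 2 genes was not tested.

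Ccl6 was closest to Gm10134 and Gm11428 (0.98 each) and Ccl25 to 9330162012Rik and Txn2 (0.98 each), patterns that follow the strain. Ccl22 was closest to Gimap4 and Donson (0.97 each), and only 1 of the 21 other arrays measured it above background. Ccl2 was closest to Tpm4 and Srebf2 (0.73 each) and Ccl7 to Clec4b1 and Slfn4 (0.71 each). Over the 21 other arrays the closest genes were Fgf9 and Was (0.82 each) for Ccl2 and Naip2 (0.88) and Ncf4 (0.86) for Ccl7.

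Sequences before the gene starts of Ccl6, Ccl8 and Ccl9 are shown because these 3 genes moved together in BALB/c glands at 4 weeks. They are the 250 bases upstream of the start in RefSeq (GRCm38.p6), 5′ to 3′, in lower case with motif matches in capitals. Promoters were found for 6 of the 10 genes.
Ccl6, chr11:83593088-83593337, minus strand: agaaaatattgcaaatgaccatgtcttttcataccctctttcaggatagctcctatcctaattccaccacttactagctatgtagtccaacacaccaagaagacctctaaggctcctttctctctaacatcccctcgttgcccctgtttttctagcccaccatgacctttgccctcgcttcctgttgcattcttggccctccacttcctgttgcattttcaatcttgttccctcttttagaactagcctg
Ccl8, chr11:82114935-82115184, plus strand: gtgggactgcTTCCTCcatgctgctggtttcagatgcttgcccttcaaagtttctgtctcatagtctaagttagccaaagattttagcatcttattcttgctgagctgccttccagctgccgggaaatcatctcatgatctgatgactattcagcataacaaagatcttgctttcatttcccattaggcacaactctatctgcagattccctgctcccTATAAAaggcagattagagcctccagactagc
Ccl9, chr11:83578637-83578886, minus strand: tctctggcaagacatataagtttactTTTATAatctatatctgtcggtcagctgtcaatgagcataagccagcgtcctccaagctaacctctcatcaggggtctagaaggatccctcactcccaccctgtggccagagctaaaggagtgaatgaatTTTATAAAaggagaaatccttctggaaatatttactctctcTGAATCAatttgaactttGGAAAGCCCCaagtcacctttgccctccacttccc
The motifs searched on both strands were the TATA box (TATAAA), the PU.1 core (GAGGAA), the AP-1 motif (TGANTCA) and the NF-kappaB consensus. The STAT motif, in which N is any base, was searched as TTCNNNGAA. Ccl8 held 1 TATAAA, 32 bases before its start, and 1 GAGGAA. Ccl9 held 3 matches to TATAAA, of which a pair overlap on opposite strands, 1 to TGANTCA and 1 to the NF-kappaB consensus, and Ccl6 held 0 of the 5 motifs. Among the 32851 promoters, 12.4% held TATAAA, 7.02% the STAT motif, 23.3% GAGGAA, 6.75% TGANTCA and 3.9% the NF-kappaB consensus. A match describes these letters only.

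Of the other CC ligands, 10 of 13 listed genes were measured. In sham glands at 4 weeks 1 was higher and 1 lower in BALB/c past the thresholds: Ccl28, a ligand made by mucosal epithelium, and Ccl27a, a ligand of skin. Of all probes, 5.43% were higher and 3.43% lower past them. Ccl28 exceeded background in 3 of 3 BALB/c arrays and 0 of 3 SPRET/EiJ arrays, a strain difference of at least 13.6-fold (adjusted p = 0.000106), and Ccl27a differed by -1.52 (adjusted p = 0.00508). Among irradiated glands the Ccl28 level of BALB/c was higher by at least 10.8-fold, and Ccl24, an eotaxin, was higher by 3.42 (adjusted p = 0.00872). After LDIR at 4 weeks in BALB/c, Ccl12, an Mcp ligand of Ccr2, was higher by 0.84 (adjusted p = 0.783) and Ccl17, a Ccr4 ligand, differed by -0.95 (adjusted p = 0.777). At 8 weeks 1 of the 10 passed, Ccl4, at 1.28 (adjusted p = 1), and at 2 weeks and in SPRET/EiJ 0 did. Of all probes, 5.68% passed for strain in irradiated glands. After LDIR in BALB/c the share was 4.83% at 4 weeks and 1.81% at 8 weeks.

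Of 19 listed CC receptors and atypical receptors, 15 were measured. After LDIR in BALB/c at 4 weeks 2 passed the thresholds, both higher, against 3.45% of all probes in this direction and 4.83% in both. Ccr1, the receptor of Ccl6 and Ccl9, was well above background on 2 of 3 LDIR arrays and 0 of 3 sham arrays, at least 1.78-fold higher (adjusted p = 0.336), and Ccr4, the receptor of Ccl22, was higher by 1.0 (adjusted p = 0.75), with 3 of 3 LDIR and 1 of 3 sham arrays well above background. At 2 weeks Ccr3, the receptor of Ccl11, was higher by 0.84 (adjusted p = 0.893), 1 of 15 against 3.11% of all probes. Between strains, Ccr10, the receptor of Ccl27a and Ccl28, was higher in BALB/c sham glands by 2.07 (adjusted p = 0.00271), 1 of 15 against 8.86% of all probes.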

How the data were processed

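Mammary gland RNA was measured on 24 Agilent arrays of 1 colour, 3 in each of 8 groups. Per the file headers, the deposited intensity values are the scanner software's processed signals, background-subtracted by the authors' software. The authors also deposited a table of normalized log2 values, used as an alternative. After centring, 99.81% of its values lay within 0.01 of the levels computed here.

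Control spots and outlier-flagged spots were left out, each array's 75th percentile was subtracted from the log2 intensity, and spots of a probe were averaged, giving 55681 probes. Groups came from the labels. Differences were tested across all probes with limma 3.58.1 in R 4.3.3 and adjusted by the Benjamini-Hochberg method. The study's thresholds (p of 0.001 for strain, 0.05 for LDIR, time and interactions, change above 1.5-fold) defined a call. The LDIR by time interaction was an F test called by p alone. An exact permutation test of 3 against 3 cannot go below p = 0.1. The number of arrays limits the precision.

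The members and gene lists were chosen with earlier results of these data known. Every member probe is named. From each other list, at most 3 genes with the smallest p past the thresholds were named, and Cr2, Cd68 and C1qa were chosen after their values were seen. The test was checked on simulated data. Each result was recomputed on the authors' values, with quantile normalization, with normexp (offset 50) in place of the scanner's correction, without dim probes, with outlier spots included, by the methods' t-test, in 1 fit of all 24 arrays, with slide or replicate as a block and with each array left out. The main fits did not pair letters A to C, and pairing entered only as the replicate block. The rule for calling letters paired was that every same-letter correlation exceeded 0.1. Over 29395 detected probes this held only for LDIR at 2 weeks (0.167, 0.481 and 0.172), and over all probes (0.0129, 0.14 and -0.0312) it held for no comparison.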

Additional observations from a re-analysis of the deposited data

Results flagged for a closer look

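The LDIR difference at 4 weeks differed between the strains, by the interaction test before adjustment, for Ccl8 (2.21 on the log2 scale, BALB/c minus SPRET/EiJ), Ccl6 (1.34) and the third Ccl25 probe (-2.12). On that probe 3 of 6 SPRET/EiJ arrays were well above background, and the first and second Ccl25 probes had values of -0.03 and -0.17. Ccl8 and Ccl6 rose in BALB/c, and in SPRET/EiJ their differences were -0.38 and -0.30 (adjusted p = 0.972 for both). Without the SPRET/EiJ array that stands apart these SPRET/EiJ differences were 0.29 and 0.09.

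The LDIR difference also differed between the times in BALB/c for Ccl8 (2.43 at 4 weeks minus 8 weeks), Ccl6 (1.86) and Ccl9 (1.79). After Benjamini-Hochberg adjustment over all probes the adjusted p was 0.957 for the strain test and 1 for the time test. With slide as a block over all 24 arrays none of the values flagged by either test kept its call.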

How the results depend on the processing

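Of the values named as called or adjusted, 407 stayed on their side of the threshold over the alternatives, 76 kept the direction but lost the call, 1 gained it and 4 reversed. The remaining values of first or only probes had 1332 alternatives. Of these 118 turned direction, 20 newly passed the thresholds and 1 did both. The 4 reversals among called or adjusted values came in the strain comparison of sham glands with slide as a block over all 24 arrays. There Ccl11 was -0.04 and the 3 Ccl19 probes 0.30, 1.39 and 0.93, and the cause was not tested. In that fit the members past the thresholds numbered 1 for strain in sham glands (4 without it), 0 for LDIR at 2, 4 and 8 weeks (1, 3 and 1), 0 and 1 for time at 4 and 8 weeks (1 and 2) and 0 for both interactions (2 and 3). One fit of all 24 arrays without the block gave 2 for strain in sham glands, 0 for LDIR at 2 weeks, and 0 and 1 for the time comparisons. Slide within the comparison gave 1 for LDIR at 4 weeks and 0 at 8 weeks, with 1 array of one group on the shared slide in both. For strain in sham glands no slide held both groups, so slide entered as a random block, which cannot separate it from strain (4 members). It was not run for strain in LDIR glands, LDIR at 2 weeks or SPRET/EiJ. Normexp gave 0 at 2 weeks and 2 at 8 weeks, detected probes only gave 0 at 2 weeks, and quantile normalization and the methods' t-test each gave 0 for time at 4 weeks. Leaving out 1 array gave 3 to 4 members for strain in sham glands, 0 to 1 for LDIR at 2 weeks, 0 to 2 at 8 weeks, 0 to 1 in SPRET/EiJ, 0 to 3 for time at 4 weeks, 2 to 4 at 8 weeks and 1 to 4 for the strain interaction. Without both 8-week arrays of high lymphocyte markers, chosen after seeing the data, 2 members passed at 8 weeks. With the replicate block, 0 members passed for LDIR at 8 weeks and 3 for strain in sham glands, and the other counts were those without it. At 8 weeks the same-letter correlations over detected probes were -0.558, -0.564 and 0.545.

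Counts over all probes also moved. For strain in sham glands they were 4934, and 2752 by the methods' t-test, 1468 with the slide block and 3192 with the replicate block. For LDIR at 4 weeks they were 2688, and 612 with normexp and 672 with the slide block, and at 8 weeks 1008, and 139 with normexp and 2871 with all arrays in 1 fit. Ccl22 and the 2 dimmest Ccl25 probes are limited by signal near background.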
